A study of Mus musculus with 31 samples.

Results

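The Hox genes encode homeodomain transcription factors that pattern the body axis, and in the mouse they lie in 4 clusters. The account below covers 38 Hox genes, chosen as the Hox genes of the RefSeq table of GRCm38.p6, out of 21883 protein-coding genes on chromosomes 1 to 19, X and Y. It also covers every meiotic break hotspot inside the 4 clusters, each taken from its first to its last gene with 50000 bp added on both sides. These hotspots number 114 of the 414683 in 26 lists. A Hox gene was called in a list that had a hotspot centred no more than 1000 bp from one or the other end of the gene. The family has 39 members under the rule, and 1 of them is not analysed here.

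The study mapped meiotic DNA breaks in mouse testis by single-stranded DNA sequencing after chromatin immunoprecipitation of DMC1, the recombinase that coats resected break ends. The labels give 6 inbred strains: C57Bl/6J (B6), C3H/HeJ (C3H), B10.F-H2pb1/(13R)J (13R), CAST/EiJ (CAST), MOLF/EiJ (MOL) and PWD/PhJ (PWD). They also give 19 F1 crosses among these strains, named with the mother first (marked f) and the father second (marked m). The last genotype is a Prdm9 knockout, with B6;129P2-Prdm9<tm1Ymat>/J given as the strain of both parents. Each genotype has 1 library and therefore no replicate. The sources used here do not give ages or say whether animals were pooled, and the lists hold break sites, so the tissue label could not be checked against marker genes. An update in the series text withdraws a library for a false label, CAST mother by 13R father, and names the entry that carries the label CAST at present. CAST values below take the present label as correct.

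PRDM9 is a zinc finger protein with histone methyltransferase activity that binds DNA in meiotic prophase and directs breaks to the sites it marks. Strains with different Prdm9 alleles have largely different hotspots. In mice without PRDM9, breaks still form and fall largely at promoters and other places that carry active histone marks for other reasons. Hox clusters are gene-dense, rich in CpG islands, and are textbook targets of the Polycomb repressors and their Trithorax counterparts.

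The deposited strength score was read only within its own list, as a rank (1 is the strongest) or as a percentile, the percent of the list with a lower score. The lists held 10445 to 19528 hotspots with PRDM9 and 30929 in the knockout. Read depth is unknown, so a longer list is not a measure of more breaks.

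The knockout list held 27 hotspots in the 4 clusters, against 0 to 8 (median 4) in the 25 lists from mice with PRDM9. PWDfX13Rm had none and B6 had the most. Since the knockout list is also the longest, each count was set against its own list. The knockout had 30.5 hotspots per Mb in the Hox clusters and 12.2 per Mb over the autosomes, a ratio of 2.50. The same ratio ran from 0 to 1.23 with a median of 0.713 in the other 25 lists, and none of them reached the knockout. Without the flanks the ratio was 3.89 in the knockout, with a median of 0.694 in the others. The Hox clusters took 0.0900% of the autosomal knockout hotspots (exact Clopper-Pearson 95% interval 0.0593% to 0.131%), an interval that covers counting error only. With 1 knockout library this difference has no replicate check. It also rested on weak hotspots of the longest list, which a ratio to the list's own density does not adjust for. Among the strongest 50% of each list the ratio was 0.747 in the knockout, with a median of 0.369 in the others, and 8 of the 25 were at or above the knockout. With lists of equal length, the strongest 5000 of each, the ratio was 0 in the knockout, with a median of 0 in the others. All 25 were at or above the knockout, since no ratio is below 0. That cut also removes the weak hotspots, so it does not part length from strength. Whether list length accounts for the difference over whole lists was not tested.

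**Figure D1:**
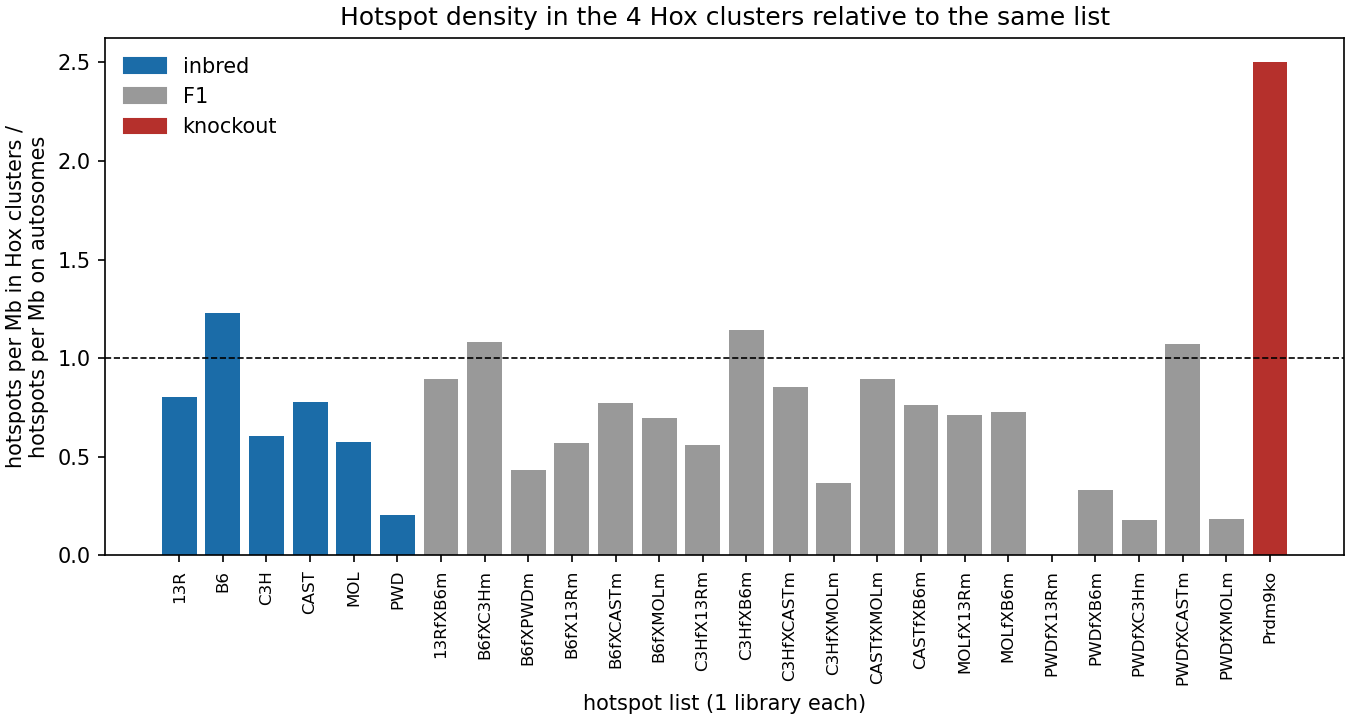
Hotspots per Mb in the 4 Hox clusters divided by hotspots per Mb on the autosomes of the same list (vertical axis, a ratio), 1 bar per library, for 6 inbred strains, 19 F1 crosses and the Prdm9 knockout. The knockout bar stands at 2.50, and the highest of the other 25, B6, at 1.23.

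The knockout hotspots were unevenly divided among the clusters. HoxA on chromosome 6 (52162417 to 52260880, 98.5 kb from first to last gene) held 16 of the 27, and HoxD on chromosome 2 (74668225 to 74765142, 96.9 kb) held 8. HoxB on chromosome 11 (96194316 to 96368254, 173.9 kb) held 2, and HoxC on chromosome 15 (102921131 to 103036856, 115.7 kb) held 1. Coordinates are on mm10. The densities with 50000 bp flanks were 80.6 per Mb in HoxA (exact Poisson 95% interval 46.1 to 131), 40.6 in HoxD (17.5 to 80.0), 7.30 in HoxB (0.884 to 26.4) and 4.64 in HoxC (0.117 to 25.8). The HoxA and HoxD intervals lie above the autosomal 12.2, while those of HoxB and HoxC contain it. HoxA thus had 6.61 times and HoxD 3.33 times the autosomal density, and HoxB and HoxC had 0.599 and 0.380 times that density.

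Knockout hotspots covered 15.1% of the bases of the HoxA region and 9.54% of HoxD, against 2.81% of the autosomes. They covered 0.872% of HoxB and 0.578% of HoxC. Among 12371 autosomal windows of the length of the HoxA region, 16 (0.129%) held at least 16 knockout hotspots. For HoxD, 663 of 12469 windows (5.32%) held at least 8. For HoxB and HoxC, 61.3% and 72.2% of the windows of their lengths held at least as many hotspots as they did. Among windows with at least as many protein-coding genes as the region, 4 of 161 (2.48%) reached the count of HoxA and 98 of 233 (42.1%) that of HoxD. The HoxD count was thus common among gene-rich windows. For HoxB and HoxC the shares were 81.3% and 84.7%.

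The 500 kb on either side of the HoxA region held 7 knockout hotspots each, or 14 per Mb, so that the cluster was denser than its surroundings. HoxD had 7 and 10 beside it. HoxB showed the opposite, with 14 and 12 hotspots beside it (28 and 24 per Mb) and 7.30 per Mb within. HoxC had 7 on each side. Gene content differed as well. The stretches beside HoxA held 1 and 3 protein-coding genes, against 11 in the HoxA region, and those beside HoxB held 12 and 6, against 11 in the HoxB region.

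**Figure D2:**
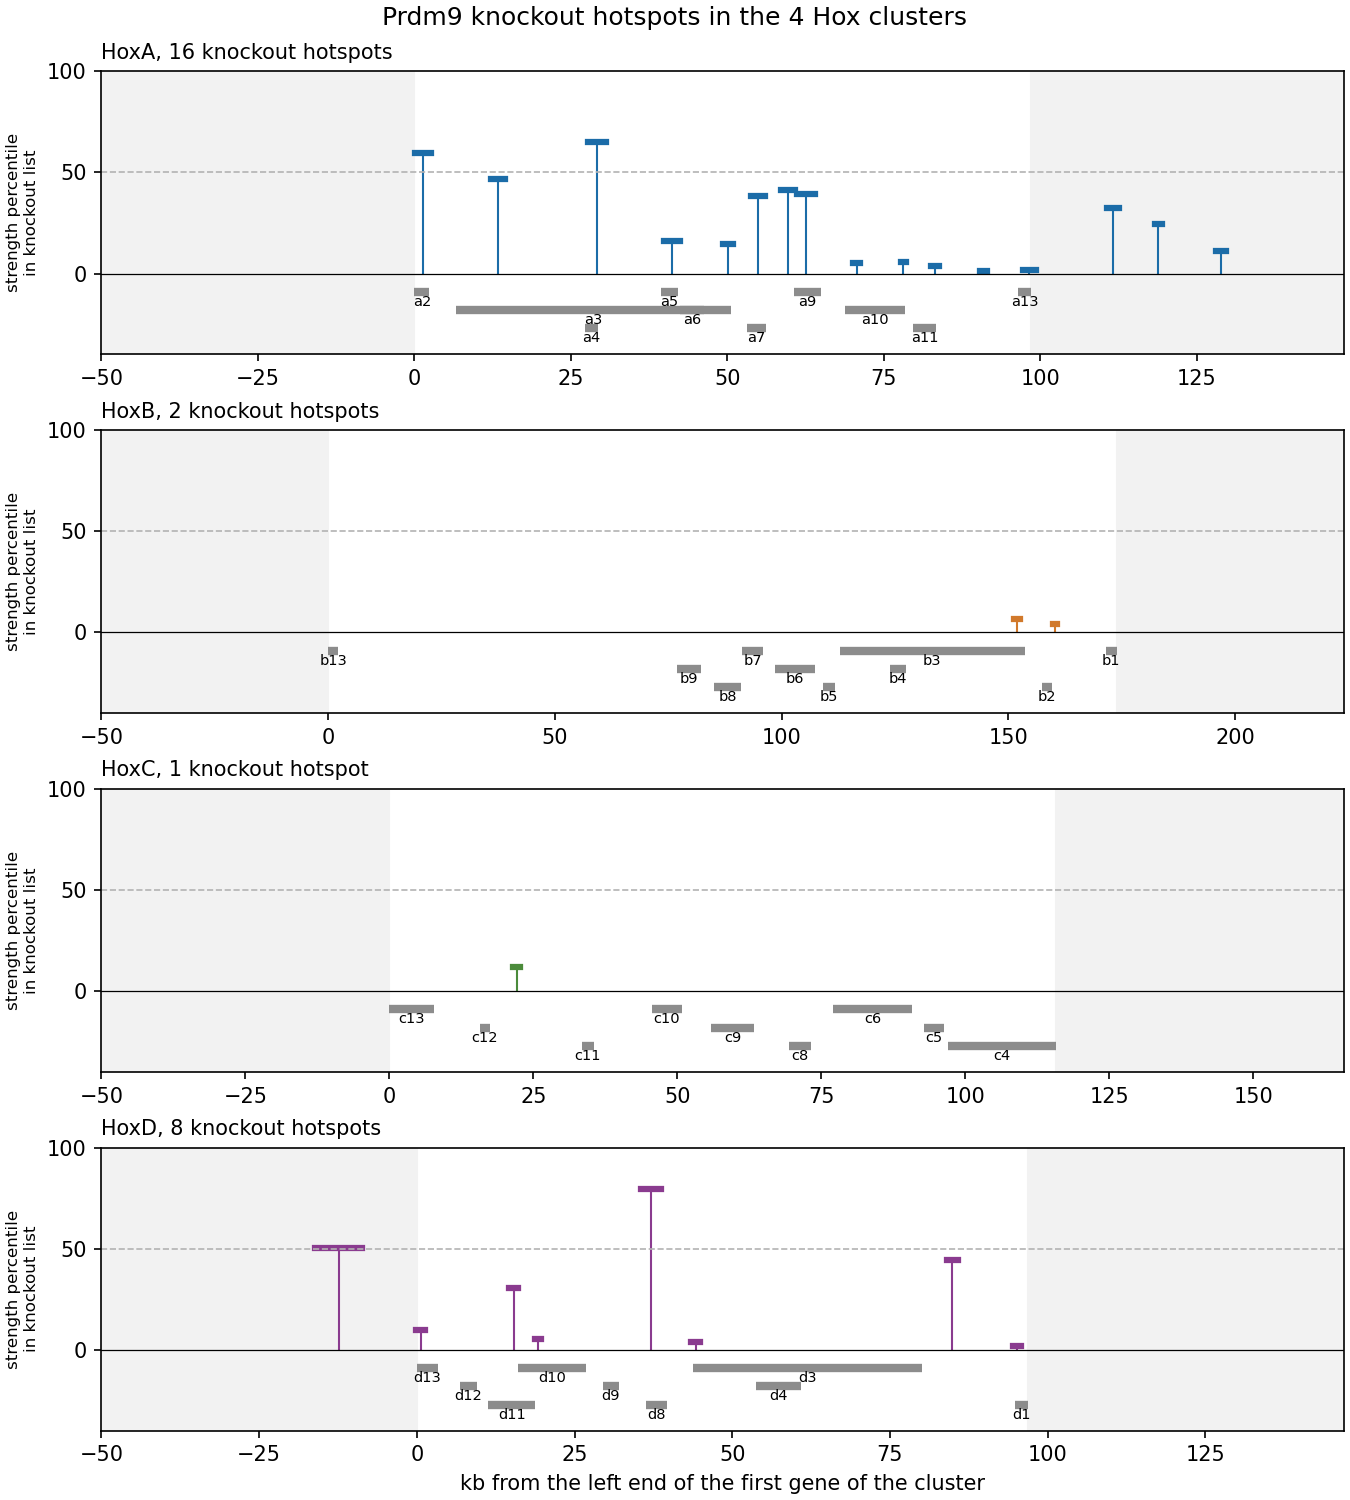
Each knockout hotspot (horizontal bar: its span; stem: its centre) in HoxA, HoxB, HoxC and HoxD, by kb from the left end of the cluster's first gene (horizontal axis) and strength percentile within the knockout list (vertical axis). Grey bars are the Hox genes, shaded areas the 50000 bp flanks and the dashed line the median of the list; HoxA shows 16 hotspots, HoxD 8, HoxB 2 and HoxC 1.

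HoxA was studded along its length. Its 13 knockout hotspots between the first and the last gene had centres 2.88 to 15.9 kb apart (median 7.60 kb), and 9 of its 10 genes were overlapped by at least 1. Hoxa6, which helps to pattern the trunk, was the exception. The strongest HoxA hotspot lay at Hoxa4, at percentile 65.0 (rank 10819), and the next at Hoxa2, a hindbrain patterning gene, at percentile 59.5 (rank 12517). Toward the other end, Hoxa11 and Hoxa13, which pattern the limb and the urogenital tract, had hotspots at percentiles 3.69 and 1.61. Over the 13 hotspots, strength percentile fell with position from Hoxa2 toward Hoxa13 (Spearman's rho -0.874), and rho was -0.827 for the 11 left after the strongest and the weakest were set aside. These points come from 1 library, and neighbouring hotspots share their surroundings, so rho is a description without a test. In HoxD, read in the matching gene order from Hoxd1 toward Hoxd13, rho was 0.286 over 7 hotspots, of the opposite sign.

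HoxD held the strongest knockout hotspot of any cluster, at Hoxd8, with rank 6299 and percentile 79.6. Its span, chr2:74703754-74706997, covers the RefSeq start of Hoxd8. Next came the widest of the 27, 7458 bp at chr2:74652128-74659585 and percentile 50.6, with its centre inside Evx2, the even-skipped homologue beside Hoxd13. The third, at percentile 44.5, lay between Hoxd3 and Hoxd1 inside the long noncoding gene Haglr (chr2:74752264-74753953). The hotspot near an end of Hoxd10, with its centre inside the overlapping gene Hoxd11, stood at 30.5. That at Hoxd13, the gene whose expansions cause synpolydactyly, stood at 9.67. In HoxB, the 2 hotspots lay inside Hoxb3 (percentile 6.45) and 572 bp from an end of Hoxb2 (4.21). The HoxC hotspot, at percentile 12.1, lay between Hoxc12 and Hoxc11 and within 1000 bp of an end of Hotair, a long noncoding RNA of the cluster.

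Hox knockout hotspots were mostly weak, and their excess per Mb lay in HoxA and HoxD and not in HoxB or HoxC. Their median percentile was 14.4 over all 27, where the median of the whole list is 50 by construction. Of the 27, 4 were in the stronger 50% of the list, 0 in the strongest 10%, and 11 in the weakest 10%. The 13 at Hox gene ends had a median percentile of 5.59, whereas the 10349 knockout hotspots at the ends of any protein-coding gene had a median of 70.4. They were also narrower, with a median width of 1452 bp against 2740 bp at the ends of any gene. Weighted by strength, the excess was smaller: the share of summed strength per Mb in the clusters was 1.21 times that of the autosomes in the knockout. Among the strongest 50% of each list the ratio of densities was 0.747 in the knockout, and 8 of the 25 other lists were at or above it.

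At the level of genes, 13 of the 38 Hox genes (34.2%, exact 95% interval 19.6% to 51.4%) had a knockout hotspot within 1000 bp of an end. Over all 21883 protein-coding genes the figure was 51.0%, within the upper edge of that interval. The count was 6 of 10 in HoxA, 6 of 9 in HoxD, 1 of 10 in HoxB and 0 of 9 in HoxC. The pooled share was no higher than the background, but the clusters differed. HoxA and HoxD, where hotspots per Mb were high, had 6 of 10 and 6 of 9 genes called. Counts this small do not set either cluster apart from the 51.0% of all genes, and the difference between clusters was not tested. The low pooled share came with HoxB and HoxC, which had no excess of hotspots per Mb. With a window of 500 bp, 18.4% of the Hox genes and 41.5% of all genes were called. The Hox genes are short, with a median length of 3722 bp against 17170 bp over all genes. Genes whose length fell within the Hox range of 1784 to 44009 bp were called in 52.1% of cases. Their median length was 13122 bp, so this set is not matched to the shorter Hox genes.

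The 10 strongest of the called genes were Hoxd8 (rank 6299), Hoxa4 (10819), Hoxa9 (18108), Hoxd10 (21507), Hoxa3 (26478), Hoxd13 (27937), Hoxa10 (29197), Hoxd11 (29212), Hoxb2 (29624) and Hoxd3 (29721), of 30929. Hoxa11 (29783), Hoxd1 (30393) and Hoxa13 (30431) completed the 13. Hoxd10 and Hoxd11 overlap, and the hotspot called at an end of each had its centre inside the other gene. None was among the strongest 5000 knockout hotspots, which allows a share of up to 7.89%, whereas 17.5% of all protein-coding genes were called there. Counting any overlap with the gene in place of its ends gave 16 of 38 (42.1%), against 62.6% of all genes. This added Hoxa2, Hoxa5, Hoxa7 and Hoxb3 and left out Hoxb2, whose hotspot lay beyond its end. The gene table gives no strand, so the start site could be placed only for the 22 Hox genes with a RefSeq promoter entry. Of these, 8 (36.4%, interval 17.2% to 59.3%) had a knockout hotspot within 1000 bp of the start site, against 54.1% of the 17491 genes with such an entry. The 22 are 9 genes of HoxA, 9 of HoxD, 3 of HoxB and 1 of HoxC. They come mostly from the clusters rich in knockout hotspots, so this share does not stand for all 38 genes.

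The promoters of 4 Hox genes are printed to show what these hotspots cover, from 250 bp before to 50 bp after the annotated start, 5′ to 3′ on the gene's strand, with CG dinucleotides in capitals. Sequences are from RefSeq, build GRCm38.p6. Hoxd8 (chr2:74704365-74704664, plus strand, 6 CG) carried the strongest Hox hotspot of the knockout. Hoxa13 (chr6:52260831-52261130, minus strand, 45 CG) carried the weakest at a gene end. Hoxa10 (chr6:52240805-52241104, minus strand, 12 CG) was overlapped by hotspots both with and without PRDM9. The gene has another promoter entry, not printed (chr6:52234890-52235189, 21 CG). No hotspot of any list overlapped that entry, and its nearest knockout centre was 1888 bp away. Hoxb4 (chr11:96318017-96318316, plus strand, 14 CG), from a cluster nearly free of knockout hotspots, had its nearest knockout centre 27882 bp away.
Hoxd8: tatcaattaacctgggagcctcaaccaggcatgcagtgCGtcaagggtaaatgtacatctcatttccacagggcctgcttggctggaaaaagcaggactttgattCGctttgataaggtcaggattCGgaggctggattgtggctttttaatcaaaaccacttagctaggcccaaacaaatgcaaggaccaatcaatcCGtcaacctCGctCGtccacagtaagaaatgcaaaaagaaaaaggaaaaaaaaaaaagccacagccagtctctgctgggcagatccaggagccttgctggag
Hoxa13: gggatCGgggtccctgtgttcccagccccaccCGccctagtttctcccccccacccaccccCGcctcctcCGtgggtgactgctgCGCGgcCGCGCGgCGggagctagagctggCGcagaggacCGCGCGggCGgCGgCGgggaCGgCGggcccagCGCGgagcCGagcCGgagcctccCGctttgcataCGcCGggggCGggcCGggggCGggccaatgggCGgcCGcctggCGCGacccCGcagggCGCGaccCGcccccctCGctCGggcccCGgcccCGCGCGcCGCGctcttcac
Hoxa10: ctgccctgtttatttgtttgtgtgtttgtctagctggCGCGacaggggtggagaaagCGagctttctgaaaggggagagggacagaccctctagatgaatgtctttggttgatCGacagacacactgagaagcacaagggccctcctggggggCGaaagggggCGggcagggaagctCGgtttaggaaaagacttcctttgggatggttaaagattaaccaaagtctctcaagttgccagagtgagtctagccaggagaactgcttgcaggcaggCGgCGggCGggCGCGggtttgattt
Hoxb4: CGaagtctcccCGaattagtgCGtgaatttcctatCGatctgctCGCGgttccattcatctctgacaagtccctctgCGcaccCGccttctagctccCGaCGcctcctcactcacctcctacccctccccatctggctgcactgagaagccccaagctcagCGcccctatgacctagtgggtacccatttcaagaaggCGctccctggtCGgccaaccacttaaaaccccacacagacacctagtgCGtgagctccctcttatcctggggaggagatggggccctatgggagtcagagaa

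Hoxd8 is the poorest in CG of these promoters and Hoxa13 the richest, the reverse of their hotspots' strengths. Over 24 promoter entries of the 22 Hox genes, mostly of HoxA and HoxD, 10 (41.7%) were overlapped by a knockout hotspot. The share was 53.4% of 21262 protein-coding promoters. The 10 held a median of 20 CG per 300 bp and the other 14 a median of 13. Over all promoters the medians were 21 where a knockout hotspot overlapped and 4 where none did. The Hox promoters without a hotspot thus had more CG than the promoters without one in general. Hoxa6, with 26 CG, had no hotspot in any list. The letters TATAAA, searched on both strands, were found in 4 of the 24 Hox promoters (16.7%) and in 12.6% of all promoters of this length.

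In mice with PRDM9 the called Hox genes were few. Over the 25 lists together, 3 of 38 (7.89%, interval 1.66% to 21.4%) had a hotspot centre within 1000 bp of an end, against 18.3% of all protein-coding genes. The same 3 genes were called when only the 6 inbred lists were counted, against 12.9% of all genes. They were Hoxa10, Hoxb3 and Hoxc13, and each followed 1 strain. Each list with PRDM9 called 0 or 1 Hox gene; 1 of 38 is 2.63%, and single lists called 1.37% to 6.60% of all genes (median 2.50%), so counts within 1 list are near the background. Of the 38, 23 (60.5%) had no hotspot at an end in any of the 26 lists, against 42.5% of all protein-coding genes. No hotspot of any list overlapped 21 of them (55.3%), against 24.7% of all genes, which are longer at the median. The 21 were Hoxa6, Hoxb1, Hoxb2, Hoxb4, Hoxb5, Hoxb6, Hoxb7, Hoxb8, Hoxb9, Hoxb13, Hoxc4, Hoxc5, Hoxc6, Hoxc8, Hoxc9, Hoxc10, Hoxc11, Hoxc12, Hoxd4, Hoxd9 and Hoxd12. The list takes in 9 of 10 HoxB genes and 8 of 9 HoxC genes.

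Hoxa10, a gene of uterine and posterior limb patterning, was called with C3H. The hotspot at chr6:52239355-52241554 stood at percentile 33.7 in C3H, 36.9 in C3HfXB6m, 17.3 in B6fXC3Hm and 2.31 in PWDfXC3Hm. It was missing from the C3H crosses with 13R, CAST and MOL. The knockout list had its own hotspot in the same place, at percentile 5.59. The centres lay less than 400 bp apart, the distance used throughout to call a place shared. It was the only place, of 53 in the clusters, found both with and without PRDM9. Single lists with PRDM9 shared 0.230% to 3.31% of all autosomal knockout hotspots. The autosomal share found in any list with PRDM9 was not counted. Whether sharing in the clusters differs from that of the autosomes was therefore not tested. The promoter of Hoxa10 printed above is overlapped by the hotspots of the knockout, C3H, B6fXC3Hm and C3HfXB6m.

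Hoxb3, a hindbrain gene, was called with CAST. The hotspot at chr11:96346155-96348176 stood at percentile 60.8 in CAST, 58.6 in CASTfXMOLm, 39 in CASTfXB6m and in PWDfXCASTm, 19.3 in C3HfXCASTm and 12.9 in B6fXCASTm. All 5 crosses with a CAST parent had it, and no other list did. Its centre lay 722 to 798 bp inside an end of the gene.

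Hoxc13, a gene of hair and nail formation, was called with 13R. The hotspot at chr15:102928257-102930279 stood at percentile 66.1 in C3HfX13Rm, 61.4 in 13RfXB6m, 56.7 in 13R, 50.1 in B6fX13Rm and 30.6 in MOLfX13Rm. Its centre lay 380 to 462 bp beyond an end of the gene. PWDfX13Rm was the only cross with a 13R parent that lacked it, and this list had no hotspot in any Hox cluster.

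The lists with PRDM9 held 27 places in the clusters, shown in the map of places by list. Of these, 10 were found in 1 list and 7 in at least 5. Inbred strains accounted for 21 of the 27, and 2 of the 21 were shared by 2 inbred strains, B6 and C3H in both cases. No place was found in 3 inbred strains. HoxA held hotspots in 5 of the 25 lists, B6, C3H, both of their crosses and PWDfXC3Hm, and each of the 5 is B6 or C3H or has one of them as a parent. The cluster with the most knockout hotspots was therefore empty in 20 of the 25 lists with PRDM9. HoxB was empty in 5 of the 25, HoxC in 11 and HoxD in 13. These counts of sharing and of empty lists were not made over the autosomes. They do not show whether places in the Hox clusters are shared more or less than other hotspots.

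**Figure D3:**
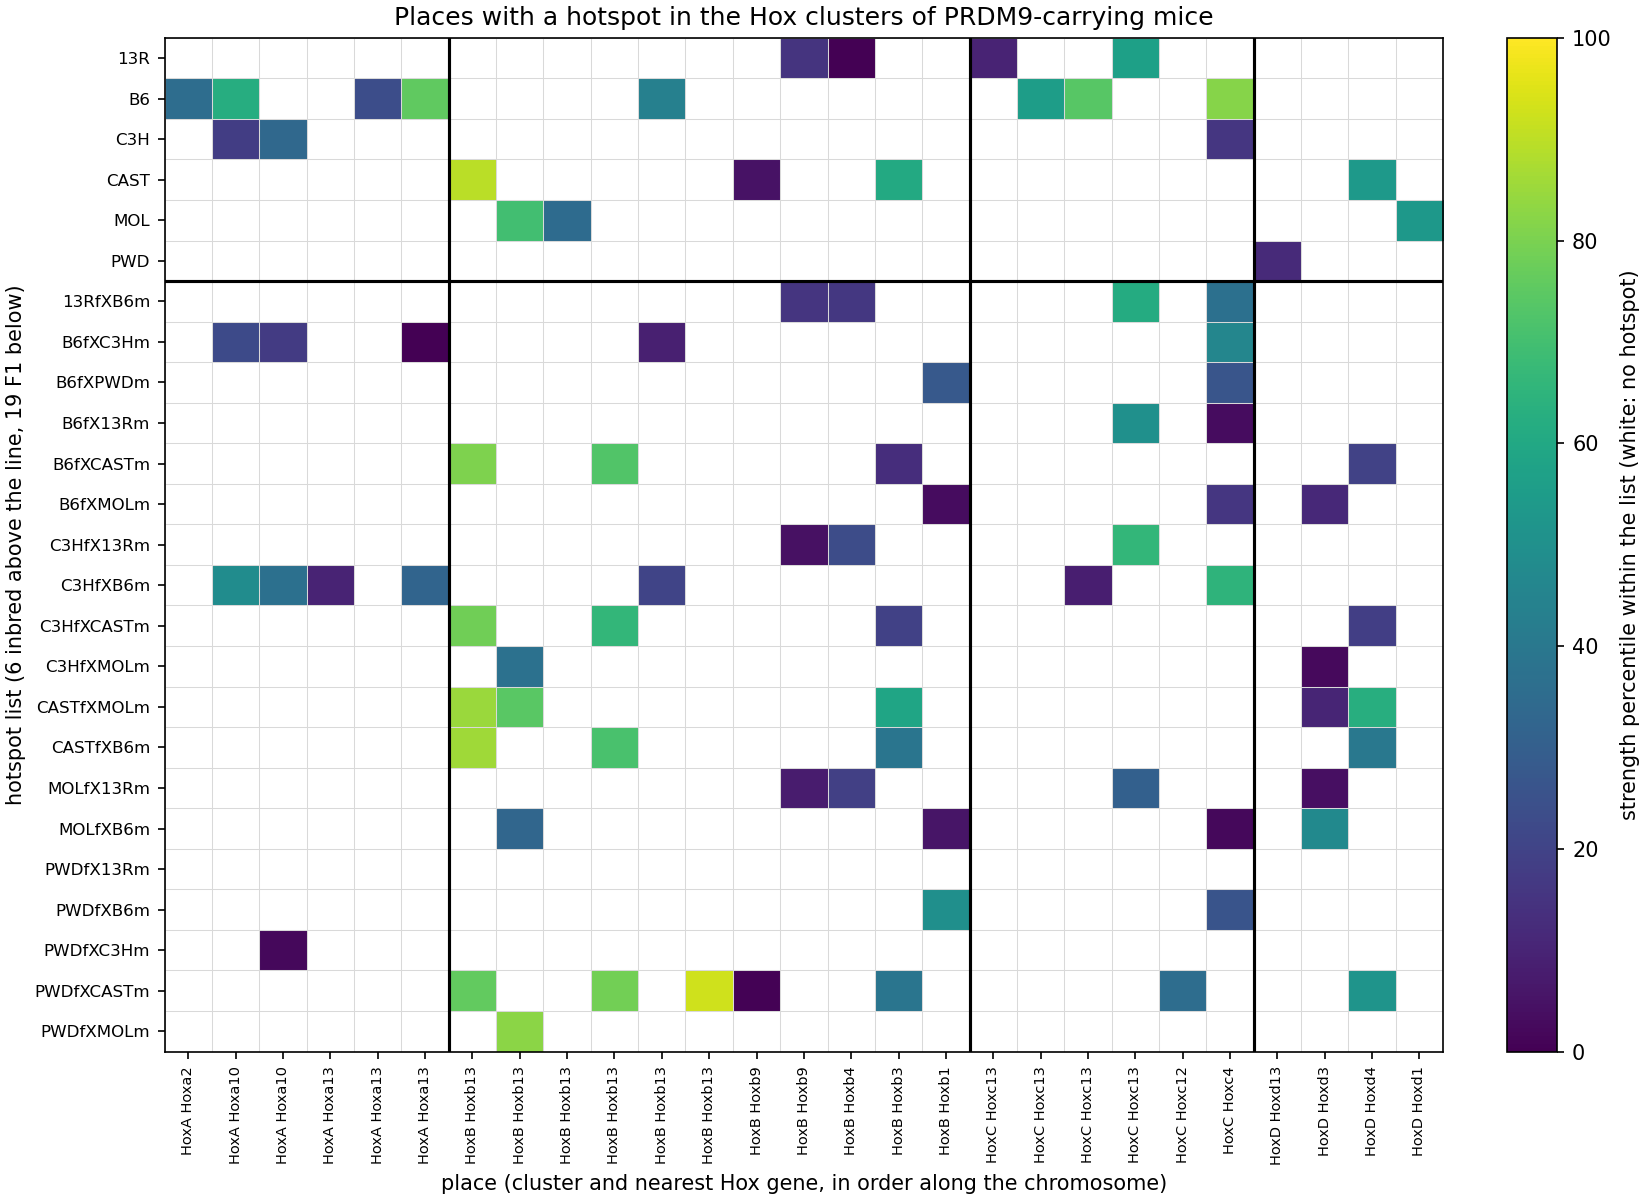
The 27 places with a hotspot in mice with PRDM9 (columns, by cluster and nearest Hox gene) in 6 inbred and 19 F1 lists (rows), coloured by strength percentile within the list, white where there was none. The HoxA columns are filled in 5 lists, and PWDfX13Rm is empty throughout.

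The place shared most widely lay 25828 to 26074 bp from Hoxc4, at chr15:103061580-103064169, in 10 lists. It was strongest in B6, at percentile 81.7, where it was also the strongest Hox cluster hotspot of that strain, and stood at 15.9 in C3H. In the 8 crosses with it, percentiles ran from 2.0 in MOLfXB6m to 64.9 in C3HfXB6m. The other place common to B6 and C3H lay inside Hoxa10, at chr6:52236409-52238166, at 62.4 in B6, 48.7 in C3HfXB6m, 22.4 in B6fXC3Hm and 18.0 in C3H. B6 crosses with 13R, CAST, MOL or PWD all lacked it.

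CAST supplied the strongest hotspot of any inbred strain in the clusters, at percentile 89.5. It lay at chr11:96143217-96146336 inside Ttll6, in the flank of HoxB, and stood at 76.1 to 85.7 in all 5 CAST crosses. CAST also had a hotspot inside Hoxd3, at chr2:74732005-74734619, at 53.7, with 18.7 to 62.8 in the same 5 crosses. The strongest Hox cluster hotspots of the other inbred strains stood at 69.8 in MOL (inside Ttll6, chr11:96163567-96166074), 56.7 in 13R (Hoxc13), 33.7 in C3H (Hoxa10) and 12 in PWD. The MOL place was found in 4 of 6 MOL crosses, at 33.1 to 82.8. The PWD place, 39534 bp from Hoxd13, was the only Hox cluster hotspot of that strain and was found in none of its 6 crosses.

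Of the 27 places, 6 were found in crosses and in no inbred list. The strongest lay between Hoxb13 and Hoxb9 at chr11:96225428-96229107, in PWDfXCASTm alone, with rank 1375 and percentile 92.8, the highest of the 114 Hox cluster hotspots. Another, at chr11:96170903-96173468, was found in 4 of the 5 CAST crosses at 66.2 to 78.8 and was missing from CASTfXMOLm and from CAST itself. A hotspot inside Hoxd3 and at an end of the overlapping noncoding gene Hoxd3os1, at chr2:74714134-74716415, was found in 5 of the 6 MOL crosses. It stood at 47.4 in MOLfXB6m, 11.6 in B6fXMOLm, 10.3 in CASTfXMOLm, 4.28 in MOLfX13Rm and 2.54 in C3HfXMOLm, and was missing from PWDfXMOLm and MOL. A place 25034 to 25120 bp from Hoxb1 was found in both crosses of B6 with PWD (49.8 and 28.0) and in both with MOL (5.72 and 3.32).

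In all, 16 of 64 Hox cluster hotspots of the crosses (25%) lay at a hotspot of neither parent, against 18.5% of the autosomal hotspots of the crosses. Crosses had 52 of 162 parental Hox cluster hotspots (32.1%), against 41.5% of all parental autosomal hotspots. By parent, summed over its crosses, the share found was 16 of 20 for CAST, 10 of 20 for 13R, 7 of 18 for C3H, 4 of 18 for MOL, 15 of 80 for B6 and 0 of 6 for PWD. The autosomal shares were 61.5% for CAST, 63.9% for 13R, 42.1% for C3H, 43.3% for MOL, 25.7% for B6 and 37.6% for PWD. Crosses that share a parent repeat the same parental hotspots, so these counts carry no test. In the 5 pairs of reciprocal crosses, the list with fewer Hox places had 16 in total, and all 16 were also in its partner. The sharing between reciprocal crosses was not counted over the autosomes.

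Comparisons were made between sets of lists with two-sided exact permutation tests, with p-values adjusted by the Benjamini-Hochberg method over the 3. Crosses that share a parent were treated as independent although they are not. Inbred lists had 0.0251% ± 0.0121 (SD, n = 6) of their autosomal hotspots in the Hox clusters. F1 lists had 0.0231% ± 0.0117 (SD, n = 19), a difference within the spread between lists (exact p = 0.720, adjusted 1.00). The sign of this difference turned without the flanks (-0.00117) and without HoxA (-0.00130). Crosses of which at least 1 parent was CAST, MOL or PWD had 0.0205% ± 0.0114 (SD, n = 14), and crosses among B6, C3H and 13R had 0.0305% ± 0.00988 (SD, n = 5). That difference of -0.00999 percentage points did not pass the threshold either (exact p = 0.101, adjusted 0.304). Without HoxB the same difference was -0.0137 with an unadjusted exact p of 0.00267, and without HoxD it was -0.0148 with 0.00525, so the call depends on which clusters are counted. By summed strength it was 0.000213, with the opposite sign (exact p = 0.971), as it was among the stronger hotspots of each list.

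The knockout places in the Hox clusters were then looked for in the crosses. The 4 lists with the C3H hotspot at Hoxa10 each used 1 of the 27 knockout places, and the other 21 lists with PRDM9 used 0. A count of 1 of 27 is 3.70%. Over all autosomal knockout hotspots, single lists used 0.230% (B6fX13Rm) to 3.31% (PWDfXB6m), and all but PWDfXB6m used at most 1.19%. Counts of 0 of 27 are therefore near the background. Counting any overlap of the intervals, 10 lists met a knockout hotspot of the clusters. These were the same 4 and the 6 lists of CAST and its crosses, and C3HfXB6m and PWDfXCASTm met 2 each. PWDfXB6m, the hybrid with the most knockout sites among the lists with PRDM9 (3.31% of autosomal knockout hotspots), used none of the 27. Crosses with a PWD parent used 0.617% ± 1.51 (SD, n = 6) of the 27 and other crosses 0.570% ± 1.39 (SD, n = 13; exact p = 1.00, adjusted 1.00), and the sign turned when any overlap was counted (-0.142). By shared centres, every cross above 0 had the C3H place at Hoxa10, so these means follow which crosses carry that place. The test therefore cannot say whether a PWD parent matters. With 27 places, a share of 0 allows use of up to 11.1%, above the autosomal 3.31%.

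Genes that work with Hox proteins or resemble them were counted the same way in the knockout. Of 8 Hox cofactors of the Pbx, Meis and Pknox families, which bind DNA together with Hox proteins, 7 were called (87.5%, interval 47.3% to 99.7%), with Pbx3 at rank 5288, Meis2 at 9616, Pknox1 at 13512 and Pbx4 at 18530. Of 18 Trithorax and Polycomb regulators, which maintain the active or silent state of Hox genes, 13 were called (72.2%, 46.5% to 90.3%). Of the 18, 6 were called among the strongest 5000, where 17.5% of all genes were, led by Eed (percentile 98.1), Rnf2 (98.0), Suz12 (94.7) and Phc1 (93.7), all Polycomb genes. Of 44 other homeobox genes, 17 were called (38.6%, 24.4% to 54.5%), led by Six6 (9316), Nkx6-1 (9582), Dlx2 (10220) and Barhl2 (12033). Of 8 ParaHox and Evx genes, the Hox genes' nearest relatives, 1 was called (12.5%, 0.316% to 52.7%), Gsx2 at rank 24145. Evx2 was not called, although the 7458 bp hotspot centred inside it (rank 15259) covers an end of the gene. That centre lies more than 1000 bp from both ends.

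The called members of these lists stood at a median percentile of 73.3 for the Trithorax and Polycomb regulators, 47.0 for the other homeobox genes, 40.1 for the cofactors and 5.59 for the Hox genes. With 51.0% of all genes called, the intervals of all 5 lists contain the background; no test was made of the differences. In the 25 lists with PRDM9, at least 1 hotspot was called at 1 of 8 cofactors, 3 of 18 regulators, 2 of 44 other homeobox genes and 0 of 8 ParaHox and Evx genes, against 18.3% of all genes.

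**Figure D4:**
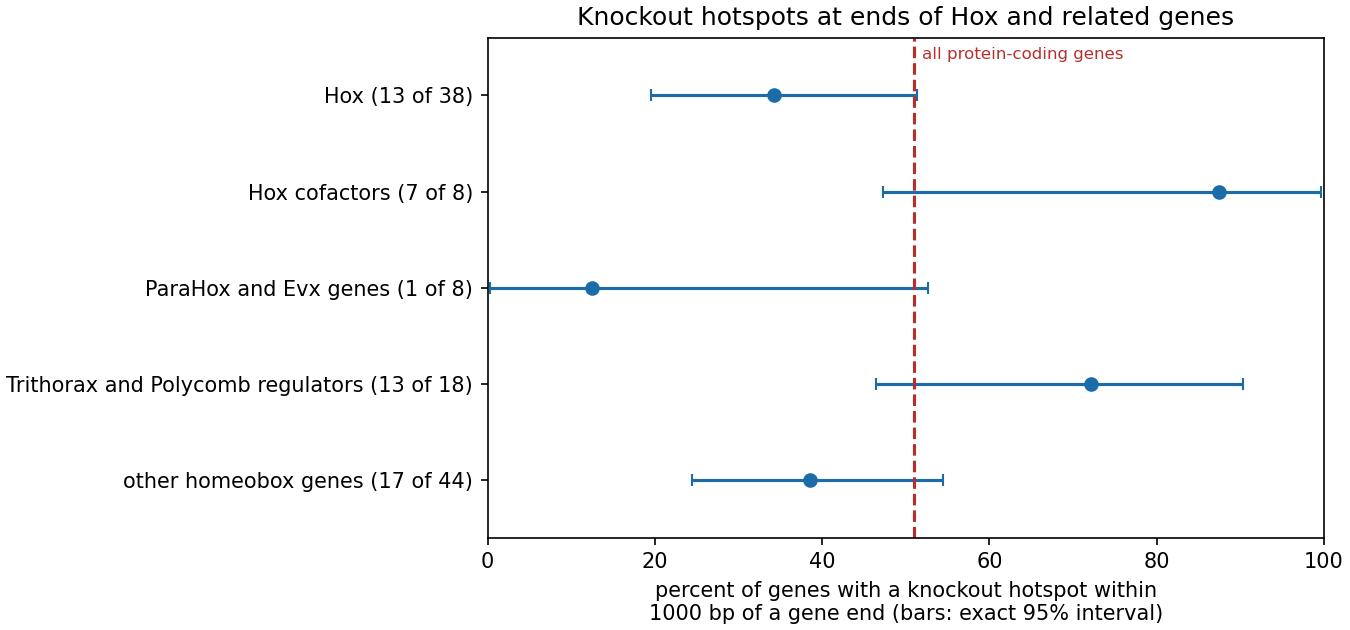
Percent of the genes of each list with a knockout hotspot centre within 1000 bp of a gene end (points), with exact 95% intervals for counting error (bars); the dashed line marks the 51.0% of all protein-coding genes. Hox genes stand at 34.2% and Hox cofactors at 87.5%.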

How the data were processed

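Hotspots were called by the authors, 1 list per DMC1 library. The submitters' processing notes name mm10, CASAVA 1.8 and MACS2 2.0.10. The aligner, the filters and the normalization of the score: not given in the sources used here. Each deposited list gives a chromosome, start, end and strength score; the score is on an unstated scale and was used only within a list. Of the 414683 scores 104 were below 0, none of them in the Hox clusters. The 5 input samples were not used here.

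The members, gene lists and tests were chosen with earlier results of these data known. Genes came from the RefSeq table of GRCm38.p6, whose primary assembly is that of mm10; starts were made 1-based. Hotspots were at a gene end when the centre lay within 1000 bp of either end, and a place when centres lay less than 400 bp apart. Autosome lengths (2460 Mb in all) were the larger of the last gene end and the last hotspot end. A gene of the cofactor list is not reported here and was left out of its counts. The scripts were tested on simulated data. The text names every Hox gene called in any list or in none, the strongest cluster hotspots of the knockout and inbred lists, places in at least 5 lists or shared with the knockout, and, per other gene list, up to 4 with the best rank; places found in crosses only, and other genes beside them, were named after their values were seen. Other windows, flanks, strength limits, overlap rules and sets of clusters were tried as alternatives. Python 3.11.15, numpy 2.4.6, pandas 2.3.3 and scipy 1.17.1 were used.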

Additional observations from a re-analysis of the deposited data

Results flagged for a closer look

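Among the 6 crosses with a PWD parent, PWDfXCASTm stood apart in the share of autosomal strength that lay in the Hox clusters, at 0.0393%. Its gap to the nearest of the other 5 was 0.735 of the whole range. This was 1 of 6 groups examined, and chance flags about 1 in 20 groups. The value includes the hotspot between Hoxb13 and Hoxb9 at percentile 92.8 that no other list had.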

How the results depend on the processing

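The share of Hox genes called in the knockout (34.2%) was 18.4% with a window of 500 bp, 5.26% in the strongest 50% of the list, 2.63% in the strongest 10000 and 0 in the strongest 5000, where all genes had 41.5%, 36.6%, 28.5% and 17.5%. The other 3 alternatives gave 36.4% to 47.4%, against 52.7% to 58.0% of all genes. The knockout ratio of 2.50 was 3.89 without flanks, 0.747 for the strongest 50%, 0 for the strongest 5000 and 1.21 by summed strength. The median percentile of the knockout hotspots, 14.4, was 5.59 at Hox gene ends alone. The difference between inbred and F1 lists changed sign without flanks (-0.00117, exact p = 0.790) and without HoxA (-0.00130, exact p = 0.794). The difference between crosses with and without a CAST, MOL or PWD parent changed sign for the strongest 50% (0.00144, exact p = 0.868), for the strongest 5000 (0.0181, exact p = 0.168) and by summed strength (0.000213, exact p = 0.971). It passed the threshold before adjustment without HoxB (-0.0137, exact p = 0.00267) and without HoxD (-0.0148, exact p = 0.00525). The difference in knockout places used was -0.142 by any overlap of the intervals (exact p = 1.00); with the strongest 5000 it was not run, as 0 knockout Hox hotspots remained. The cause was not tested for any of these. An alternative added after the data were seen, inbred against F1 without the CAST list, gave 0.00143 (exact p = 0.815). With 1 library per genotype no library could be left out of a group of replicates, and read depth is unknown. No paired analysis was possible because no group has a second library.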
